A study of Arabidopsis thaliana with 6 samples.

Results

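The B-box (BBX) zinc finger factors of Arabidopsis thaliana were examined for binding by PIF4, a bHLH transcription factor that promotes elongation growth and accumulates in darkness. Genes were taken as members where their symbol or a synonym in the RefSeq annotation of TAIR10.1 was BBX1 to BBX32. This gave 31 of 27444 protein-coding genes on the 5 nuclear chromosomes, and no gene was matched to BBX11. Whole seedlings of a line overexpressing Myc-tagged PIF4 and of the wild type were both precipitated with an anti-Myc antibody. The labels call the tagged genotype PIF4, and the design text calls the line P1M. All were 3 days old and had been kept in the dark at 21 °C after 3 h of white light, and the wild type entered only as the control of the peak caller. Each group had 3 libraries, and each library pooled 4 ChIP assays of 2 biological replicates. The tagged protein was overexpressed, and the promoter driving it is not given in the sources used here, so the sites are those of an overexpressed protein.

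BBX proteins carry zinc-binding B-box domains that mediate contacts with other proteins, and some also carry a CCT domain, named after CONSTANS. Several act in seedling de-etiolation, either with or against the bZIP factor HY5, and many are degraded through the COP1/SPA ubiquitin ligase. CO (BBX1) and its close relatives are best known for the control of flowering by day length. By structure, BBX1 to BBX6 and BBX7 to BBX13 have paired B-boxes and a CCT domain, BBX14 to BBX17 have a single B-box and a CCT domain, BBX18 to BBX25 have paired B-boxes alone, and BBX26 to BBX32 have a single B-box alone.

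All values are those the authors' peak caller gave each peak, so they have no error over replicates. Fold enrichment compares the tags at a peak's summit with those expected there from the control, and the score rises as the peak's p-value falls. Peaks were assigned to a gene by their summit, which had to be inside the gene or no more than 2 kb from it. List 1 held 12177 peaks with a median fold of 0.99, list 2 held 4093 with a median of 2.46, and list 3 held 2931 with a median of 4.17. The file headers gave 12766185, 9385807 and 12292381 treatment tags. For list 1 the header also gave 112342435 tags after filtering, more than its total, and no readable total for the control, so its depth is uncertain. The median false discovery rate was 3.81%, 63.9% and 65.2% in lists 1, 2 and 3. In list 1 every tag value was a multiple of 5, and lists 1 and 2 name the same wild-type control. Of 2454 overlapping peak pairs of lists 2 and 3, 50.5% began at the same base and 51.1% had the same summit, so these lists were not read as independent. Counts over the family are set beside those over all genes as a description, with no test. The tagged gene PIF4 itself had a peak with its summit in the gene in all 3 lists. The line carries added PIF4 sequence that the wild type lacks, so these peaks cannot be told apart from reads of that sequence.

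PIF4 peaks lay at 9 of the 31 BBX genes in at least 2 lists (29%), against 18.2% of all protein-coding genes. These were BBX5, BBX7, BBX8, BBX17, BBX20, BBX21, BBX23, BBX28 and BBX29. All 9 had a peak in both lists 2 and 3, where the share of all genes was 11.9%. Taken by list, 11 members had a peak in list 2 (35.5%, against 19.0% of all genes) and 9 in list 3 (29%, against 14.2%). In list 1 the count was 15 (48.4%), close to the 53.2% of all genes. A peak in all 3 lists was found at 6 members (19.4%, against 7.82%), namely BBX8, BBX20, BBX21, BBX23, BBX28 and BBX29. The same 6 were those shared by lists 1 and 2 (12.7% of all genes) and by lists 1 and 3 (9.23%). Another 9 members had list 1 peaks alone (29%, against 39.0% of all genes), and 11 had no peak in any list (35.5%, against 39.5%). BBX25 and BBX27 had list 2 peaks alone, a share that was not counted over all genes. With peaks kept only where the false discovery rate was 1% or below, BBX28 and BBX29 in list 2 were the only members with a peak. In list 2 the share of all genes was then 0.394%. At this rate 0 members had a peak in at least 2 lists (0.051% of all genes), and list 3 as a whole held only 2 such peaks. With all peaks, the count was 6 without list 2 and 6 without list 3 (9.23% and 12.7% of all genes). The median gene length was 1826 bp for the members and 2078 bp for all genes.

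The members with peaks were mostly of ordinary strength, with a few far above the rest. The highest fold per gene had a median of 2.91 over the 11 members in list 2, against 2.46 over all 5228 genes with a peak. In list 3 it was 4.27 over 9 members, against 4.15 over 3901 genes. In list 1 it was 0.9 over 15 members, against 1.03 over 14591 genes. These medians cover only members that had a peak. BBX29, BBX28 and BBX23 stood apart, and the other 6 members of lists 2 and 3 lay between 2.63 and 3.27 in list 2 and between 4.09 and 4.39 in list 3.

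**Figure D1:**
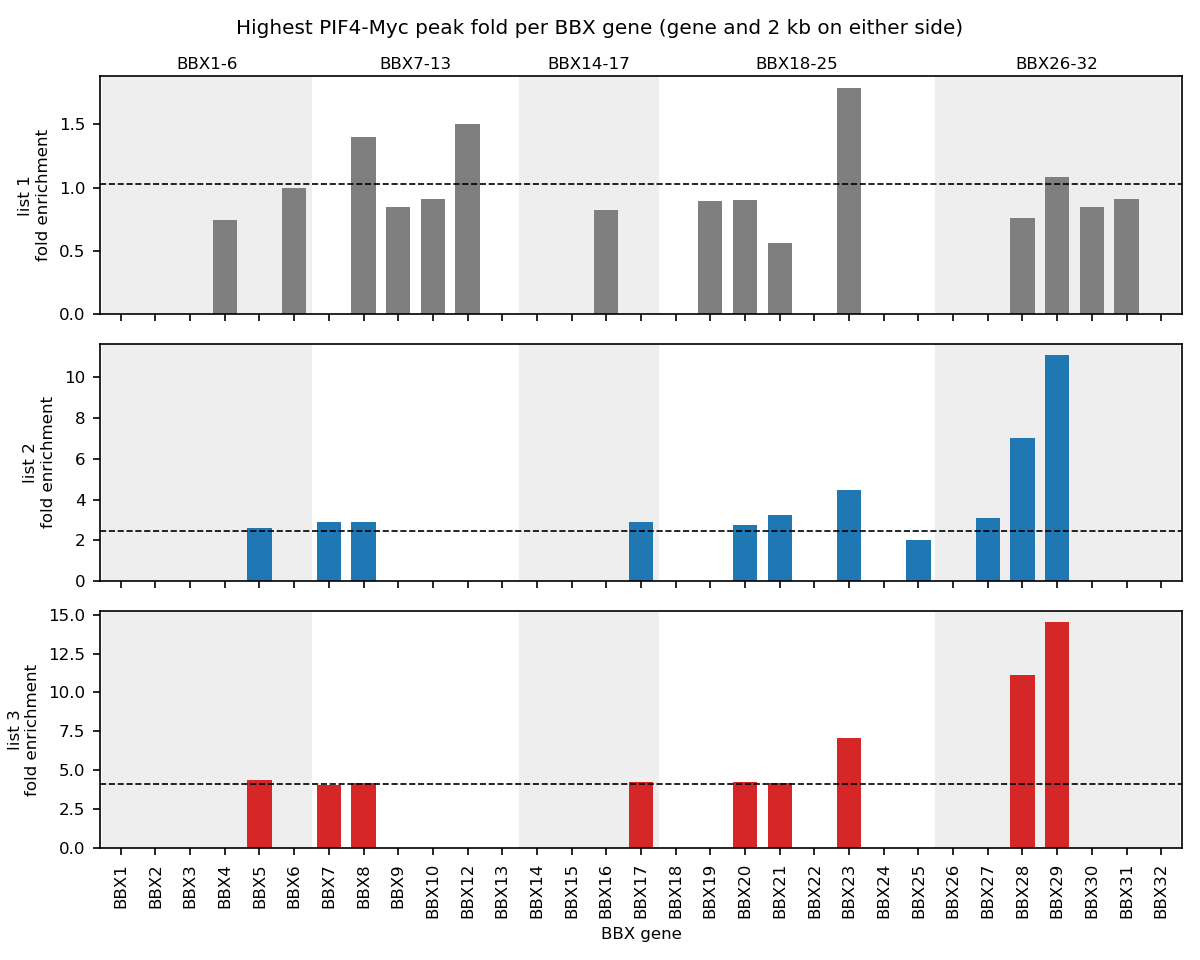
Highest fold enrichment of the peaks assigned to each of the 31 BBX genes, by list, as the authors' peak caller gave it; genes without a bar had no assigned peak, dashed lines mark the median over all genes with a peak in that list (1.03, 2.46 and 4.15), and the vertical scales differ. BBX29 and BBX28 are the tallest in lists 2 and 3, at 11.11 and 7.03 and at 14.52 and 11.1. In list 1 the tallest is BBX23 at 1.79, from a summit inside the neighbouring gene ATHSP22.0.

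The strongest PIF4 peaks in the family lay beside BBX28 and BBX29, members of the group with a single B-box and no CCT domain. BBX29 (AT5G54470) belongs with BBX28, HY5, BBX30 and BBX31 to a feedback loop of light signalling. On chromosome 5 of TAIR10, its list 1 peak ran from 22115867 to 22116307 with a fold of 1.08. The list 2 peak ran from 22115513 to 22116378 with a fold of 11.11, and the list 3 peak from 22114836 to 22116378 with a fold of 14.52. The summits of lists 2 and 3 were at the same base, 496 bp outside the gene, and that of list 1 was 27 bp away. By score the peak ranked 6 among the 4093 peaks of list 2 and 22 among the 2931 of list 3. Within list 1 it ranked 10558 among 12177 by score and 4720 by fold. The authors' false discovery rate was 11.3%, 0% and 22.73% in lists 1, 2 and 3. The peak held 486 tags in list 2 and 511 in list 3.

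BBX28 (AT4G27310), which interferes with DNA binding by HY5, had the widest peaks of the family. In list 2 the peak spanned 13673973 to 13679339 on chromosome 4, 5367 bp in all, with a fold of 7.03 and 1664 tags. In list 3 it spanned 13673973 to 13677744, with a fold of 11.1 and 1120 tags. Both peaks covered the whole gene, began at the same base and had their summit at the same base, 509 bp outside the gene. They ranked 7 by score in list 2 and 5 in list 3, with a false discovery rate of 0% and 20%. List 1 had a peak at 13675086 to 13675395 with a fold of 0.76 and another at 13675961 to 13676274, inside the gene, with 0.68. These lay within the wide peak of lists 2 and 3, the nearer summit 161 bp from theirs, but ranked 10626 and 11664 by score. A further list 2 peak with a fold of 2.16 had its summit 1975 bp from BBX28. Its list 3 counterpart, with a fold of 3.23, was 2024 bp away and so just beyond the limit. A list 1 peak with a fold of 1.21, whose summit was 2555 bp from BBX28, overlapped both and ranked 273 by score in its list. AT4G27300 was nearer than BBX28 to these summits.

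The other members of BBX26 to BBX32 showed little. BBX27 had a peak inside the gene in list 2 alone, at 25558782 to 25559830 on chromosome 1, with a fold of 3.09 and a false discovery rate of 59.97%. BBX30 and BBX31, microproteins that bind CO, had list 1 peaks alone, with highest folds of 0.85 and 0.91. BBX26 and BBX32, a factor that counteracts BBX21, had no assigned peak in any list.

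Among BBX18 to BBX25, factors with paired B-boxes that act mainly in seedling light responses, 3 of 8 had peaks in all 3 lists. This was 37.5%, against 7.82% of all genes. The peaks overlapped in all 3 lists at 1 of the 8, BBX23 (12.5%, against 3.99% of all genes). BBX23 (AT4G10240), which acts with HY5 to limit hypocotyl growth, had the highest folds of this group. On chromosome 4, its list 2 peak ran from 6369573 to 6370908 with a fold of 4.47, and its list 3 peak from 6369573 to 6370452 with a fold of 7.1. The summits fell on the same base, 148 bp outside BBX23 and 240 bp from the heat shock protein gene ATHSP22.0. It ranked 202 by score in list 2 and 176 in list 3, and the false discovery rate was 6.93% and 15.91%. List 1 had 3 summits in the window, with folds of 1.39 inside BBX23, 0.9 at 34 bp from it and 1.79 inside ATHSP22.0. The one nearest to the summit of lists 2 and 3, 114 bp from it, had the lowest fold of the 3.

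BBX21 (AT1G75540), an activator of HY5 and of de-etiolation, had a list 2 peak from 28365836 to 28368344 on chromosome 1, with a fold of 3.27 and 704 tags. The list 3 peak ran from 28365806 to 28368311, with a fold of 4.18 and 593 tags, and the shared summit lay 226 bp outside the gene. The false discovery rate was 7.81% in list 2 and 32.69% in list 3. The list 1 peak of BBX21 was on the other side of the gene, with a fold of 0.56 and a summit 2881 bp from the others, so the assigned peaks of list 1 and of the other lists did not overlap. Further peaks on that other side overlapped in all 3 lists but were not assigned. In lists 1, 2 and 3 they had folds of 1.06, 2.92 and 4.56. Their summits lay 2881 bp, 2172 bp and 2023 bp from BBX21, all beyond the limit. AT1G75530 was nearer to each summit, at 1128 bp, 1837 bp and 1986 bp.

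BBX20 (AT4G39070, BZS1), which is repressed by brassinosteroids and promotes de-etiolation, had its summit inside the gene and at the same base in lists 2 and 3. The list 2 peak ran from 18205675 to 18206902 on chromosome 4 with a fold of 2.74, and the list 3 peak from 18205594 to 18206882 with a fold of 4.27. The false discovery rate was 32.71% and 71.17%. The list 1 peak, with a fold of 0.9, was 970 bp outside the gene and its summit 1076 bp from that of the other lists. BBX25 (STH), a partner of HY5, had a list 2 peak alone, with a fold of 2.02, and that summit lay in AT2G31370. BBX19, which holds back flowering through CO, had 3 peaks in list 1 alone, with folds of 0.66 to 0.89. No peak was assigned to BBX18, BBX22 (LZF1) or BBX24 (STO).

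**Figure D2:**
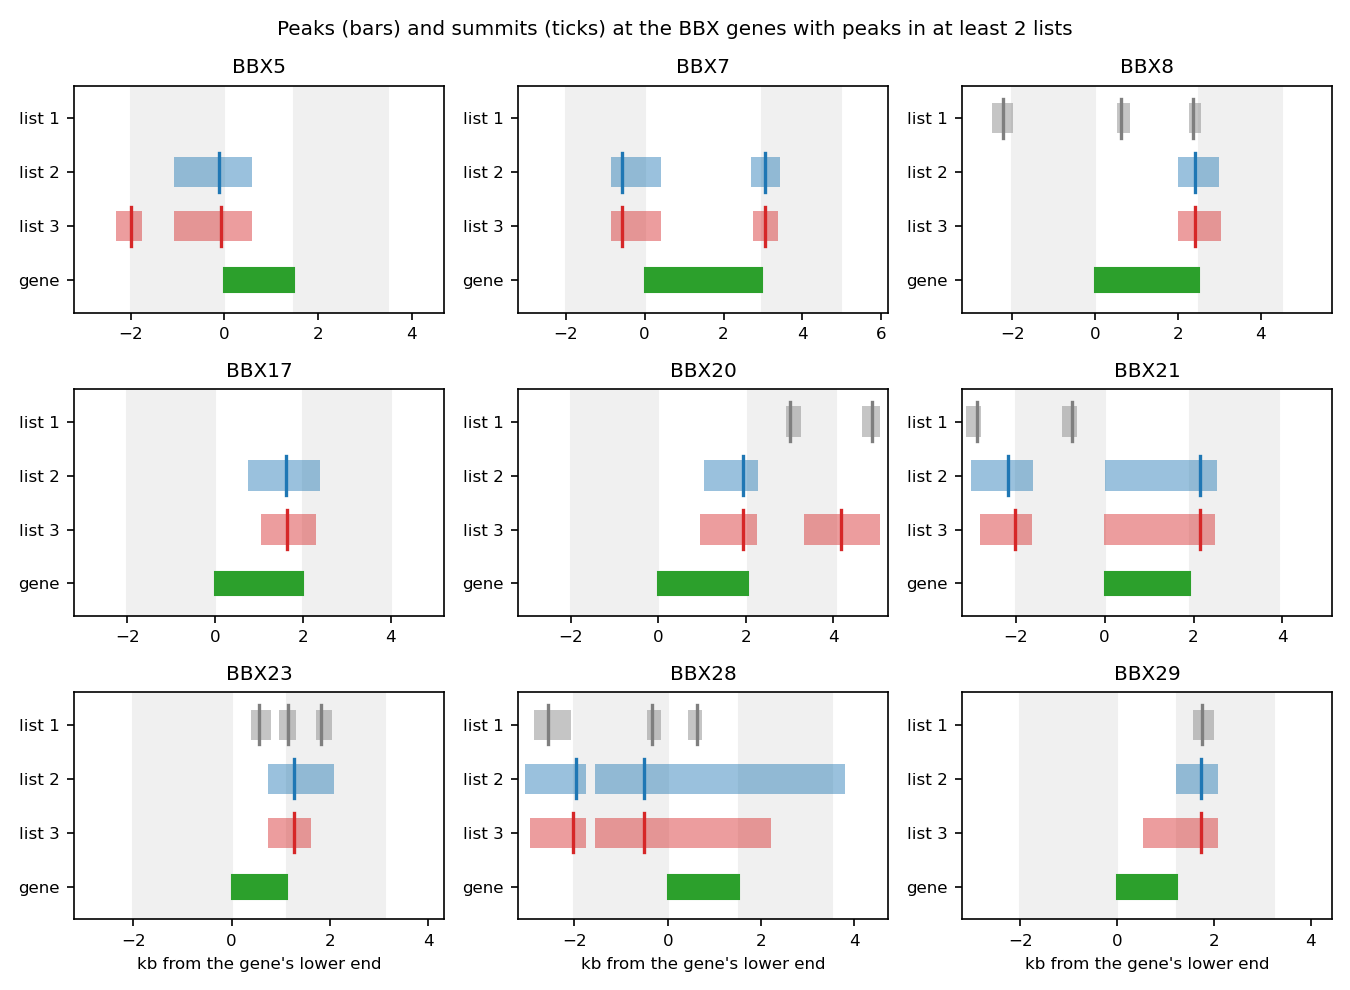
Peaks (bars) and summits (ticks) of lists 1, 2 and 3 around the 9 BBX genes with assigned peaks in at least 2 lists, drawn in kb from the end of the gene with the lower coordinate; the grey bands mark 2 kb on either side of the gene (green), and peaks whose summits lie beyond them are drawn but were not assigned. Each of the 9 genes has a pair of list 2 and list 3 summits no more than 35 bp apart, while the assigned list 1 peaks lie apart from those of lists 2 and 3 at BBX20 and BBX21, and list 1 has no assigned peak at BBX5, BBX7 and BBX17.

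Of the CCT-domain groups, BBX7 to BBX13 had 2 of 6 matched members with peaks in at least 2 lists (33.3%, against 18.2% of all genes). BBX8 (AT5G48250) had its summit inside the gene in every list. The stronger of its list 1 peaks ran from 19563574 to 19563870 on chromosome 5, with a fold of 1.4. The list 2 peak ran from 19563320 to 19564316 with a fold of 2.91, and the list 3 peak from 19563320 to 19564352 with a fold of 4.19. These 3 summits lay within 44 bp of one another. BBX8 also had the best rank of the peaks assigned to members in list 1, at 512 among 12177 by score, beside ranks of 809 and 642 in lists 2 and 3, and its false discovery rate was 1.56%, 26.33% and 29.75%. Its fold was thus far below that of BBX28 and BBX29 in lists 2 and 3, and above theirs in list 1.

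BBX7 (AT3G07650, COL9), which delays flowering by lowering CO and FT expression, had peaks on both sides of the gene in lists 2 and 3. The stronger one spanned 2440709 to 2441969 on chromosome 3 in both lists, with folds of 2.91 and 4.09 and summits 573 bp and 566 bp from the gene, at a false discovery rate of 18.6% and 32.12%. The weaker one, with folds of 1.98 and 3.04, had its summit 87 bp from BBX7 and 69 bp from AT3G07660, at 51.78% and 83.17%. List 1 had no peak at BBX7. The list 1 peaks of BBX9, BBX10 and BBX12 had highest folds of 0.85, 0.91 and 1.5 and summits inside BBX30, BBX31 and AT2G33490. BBX13 had no peak.

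BBX1 to BBX6, the group of CO itself, had a peak in at least 2 lists at 1 of 6 genes (16.7%), close to the 18.2% of all genes. This was BBX5 (AT5G24930, COL4), with the same peak edges, 8588377 to 8590051 on chromosome 5, in lists 2 and 3. The folds were 2.63 and 3.92, the summits lay 113 bp and 78 bp outside the gene, and the false discovery rate was 79.09% and 76.8%. A weaker-scored list 3 peak with the higher fold of 4.39 had its summit 1986 bp away, just within the limit. CO and its neighbour COL1 (BBX2) had no assigned peak in any list, nor had COL2 (BBX3). COL3 (BBX4), which promotes de-etiolation, had a list 1 peak alone, with a fold of 0.74.

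COL5 (BBX6), which can induce flowering when overexpressed, was a case of a strong peak just beyond the limit. Lists 2 and 3 had summits at the same base 2573 bp from it, with folds of 9.74 and 13.75, and these ranked 24 and 32 by score. A list 1 summit with a fold of 1.18 lay 2577 bp from COL5. The peaks spanned 23359126 to 23360326 and 23359189 to 23360285 on chromosome 5. AT5G57670 was nearer, at 838 bp, and within 2 kb COL5 had only list 1 peaks, with folds of 0.87 and 1.0. Of BBX14 to BBX17, BBX17 (AT1G49130) had summits inside the gene that were 7 bp apart in lists 2 and 3. The list 2 peak ran from 18175122 to 18176775 on chromosome 1 with a fold of 2.91 and ranked 251 by score. The list 3 peak ran from 18175417 to 18176678 with a fold of 4.26 and ranked 406, and the false discovery rate was 7.57% and 18.23%. BBX16 had a list 1 peak with a fold of 0.82 whose summit lay in AT1G73875. BBX14 had none, and a list 1 summit with a fold of 1.33 that lay 2047 bp from it was inside KCS6. BBX15 had none either. A list 2 summit of fold 1.78 lay 2308 bp from BBX15, but KCS5 was nearer to it, at 535 bp.

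By structural group, peaks in both lists 2 and 3 were found at 16.7% of BBX1 to BBX6, 33.3% of BBX7 to BBX13, 25% of BBX14 to BBX17, 37.5% of BBX18 to BBX25 and 28.6% of BBX26 to BBX32, against 11.9% of all genes. The groups have 4 to 8 genes, so 1 gene moves a share by 12.5 to 25 percentage points, and the differences between the groups were not tested. A peak in all 3 lists was found at 1 member of BBX7 to BBX13, 3 of BBX18 to BBX25 and 2 of BBX26 to BBX32, and at 0 of BBX1 to BBX6 and of BBX14 to BBX17, against 7.82% of all genes. Peaks that overlapped in all 3 lists were found at 4 members, BBX8, BBX23, BBX28 and BBX29 (12.9%, against 3.99% of all genes).

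**Figure D3:**
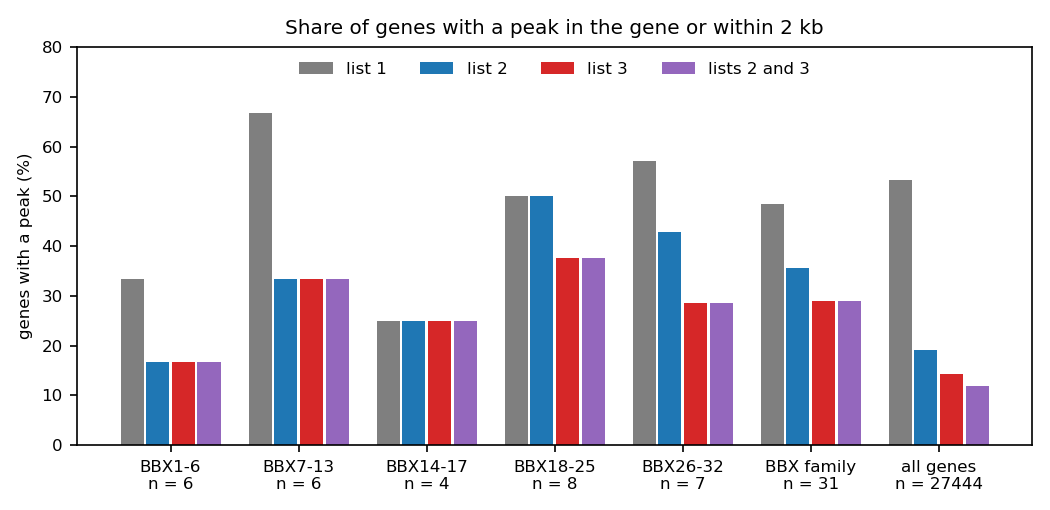
Percent of genes with a peak in the gene or within 2 kb in list 1, list 2, list 3 and in both lists 2 and 3, for the 5 structural groups, the whole BBX family and all protein-coding genes. The family stands at 29% for lists 2 and 3, against 11.9% of all genes, and at 48.4% for list 1, against 53.2%.

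The summits of lists 2 and 3 lay close together at every member they shared. At the 9 genes the lists had 10 overlapping pairs of peaks. Of these, 6 had the same summit, 5 began at the same base and 2 had both ends in common. Over all 2454 overlapping pairs of lists 2 and 3, the same held for 51.1%, 50.5% and 25.3%, so this closeness was not particular to BBX genes. Among the 10 pairs, the largest gap between summits was 35 bp, at BBX5. The list 3 fold exceeded that of list 2 by a median factor of 1.46 over the 9 members, against 1.59 over all 3254 genes with peaks in both lists. Among those 3254 genes, ordered by highest fold, BBX29 stood at 6 in list 2 and 13 in list 3, BBX28 at 47 and 56, and BBX23 at 313 and 310. The other 6 members stood between 1024 (BBX21) and 1788 in list 2. In list 3 they stood between 1606 and 1887, near the middle of the order.

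**Figure D4:**
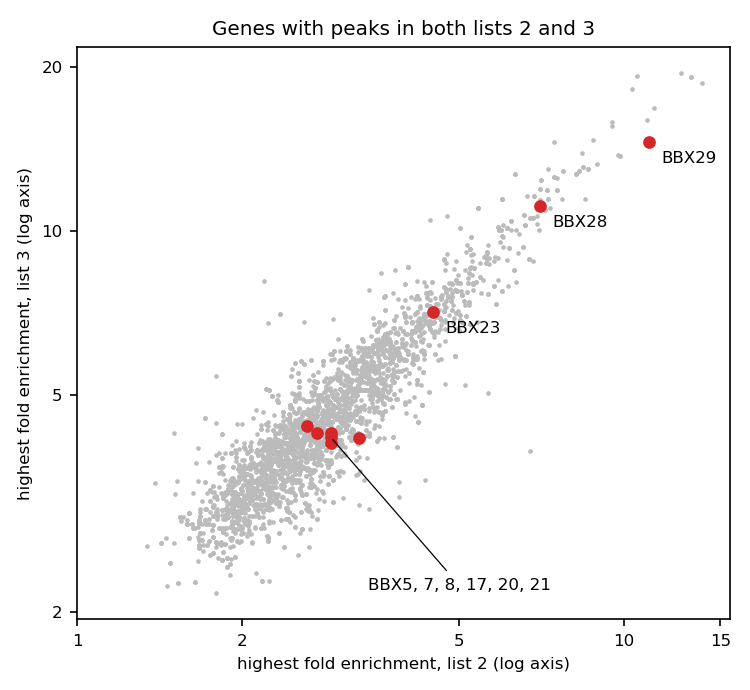
Highest fold enrichment in list 2 (horizontal, log axis) and list 3 (vertical, log axis) for the 3254 genes with an assigned peak in both lists, with the 9 BBX genes in red. BBX29 lies at 11.11 and 14.52, BBX28 at 7.03 and 11.1, and BBX23 at 4.47 and 7.1. The other 6 lie close together within the cloud.

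Most BBX peaks of lists 2 and 3 had the BBX gene as their nearest gene. This was so for 10 of 13 assigned peaks in list 2 (76.9%, against 60.3% of all peak-gene assignments) and 10 of 11 in list 3 (90.9%, against 60.1%). In list 1 it was 16 of 24 (66.7%, against 53.7%). The summit was inside the BBX gene for 8, 4 and 3 of these peaks in lists 1, 2 and 3, or 33.3%, 30.8% and 27.3%, close to the 37.0%, 26.7% and 24.1% over all assignments. Of the 24 assignments in list 1, 17 were to peaks with a fold below 1. The share over all list 1 peaks was 51.2%, but it counts each peak singly, so the values are not alike. The 24 came from 21 distinct peaks, since BBX9 shared a peak with BBX30 and BBX10 shared a pair of peaks with BBX31. The shared peaks, with folds of 0.85, 0.63 and 0.91, were counted for both neighbours. These neighbours lie 284 bp and 486 bp apart.

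Peaks were also assigned to genes that work with BBX factors. The false discovery rates given below are those of the highest-fold peaks in lists 2 and 3. Of 8 genes for HY5, its homologue HYH and the COP1, SPA and DET1 repressors of light signalling, 3 had a peak in both lists 2 and 3, against 11.9% of all genes. HY5 had highest folds of 1.91 and 3.91, with false discovery rates of 84.92% and 56.01%, and for these peaks OCP3 was nearer. SPA1 had 3.06 and 4.98, at rates of 39.52% and 48.14%. SPA4 had 1.37, 3.45 and 5.35 over lists 1, 2 and 3, at 10.96% in list 2 and 17.46% in list 3. SPA2 had a peak in lists 1 and 3, with folds of 1.72 and 3.42 and different sites. Its list 3 peak had a rate of 71.35%. SPA3 had list 1 peaks alone, the highest with 1.33, and COP1, HYH and DET1 had none. Of 9 genes of the day length pathway around CO, 5 had a peak in both lists, against 11.9% of all genes. GI, a clock-controlled activator of CO expression, had highest folds of 1.49, 5.83 and 7.35, with list 1 and list 2 summits 1043 bp and 1045 bp outside the gene. Its rates were 0% in list 2 and 14.43% in list 3. TSF, a close relative of the CO target FT, had 4.72 and 7.43, at 27.68% and 40.92%. FT had a list 3 peak alone, with 4.31 at a rate of 94.98%. CDF2 and CDF3, repressors of CO expression, also had peaks in both lists. CDF2 had folds of 2.57 in list 2 and 3.78 in list 3, at 55.31% and 52.04%. For CDF3 the values were 2.84 and 4.93, at 36.66% and 28.5%, beside a list 1 peak of 0.82 inside the gene. AT1G69570, counted here as CDF5 though the annotation used gives it no such name, had 3.78 and 5.59, at 8.05% and 15.31%. FKF1 and CDF1 had list 1 peaks alone, with highest folds of 0.85 and 0.97. SOC1 had a list 2 peak alone, with 1.98 at a rate of 78.18%. CO itself had no assigned peak in any list, as was the case for 39.5% of all genes.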

How the data were processed

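Single-end reads of 50 cycles were obtained per the labels' protocols. Per the submitters' processing notes, the tools were CASAVA 1.8.0, Bowtie 0.12.7 and MACS 1.4.1, on build TAIR10. The authors called peaks separately for each PIF4-Myc library, with MACS 1.4.0rc2 (lists 1 and 3) or 1.4.1 (list 2) at a p cutoff of 1e-05, per the file headers. The deposited fold is the caller's ratio, and the deposited score is the log10 of the peak's p-value times −10. The authors deposited the caller's false discovery rate as a percent. Tags per peak are the authors' deposited counts in lists 2 and 3. Those of list 1, all multiples of 5, were treated as a score and not used. No depth per position was available.

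Summits (start + summit − 1) were assigned to RefSeq genes of TAIR10.1, whose nuclear coordinates were taken to equal those of TAIR10, so only peak positions are printed. The annotation used carries no strand. Counts were made with Python 3.11.15 and pandas 2.3.3, and assignment was tested on simulated summits. All 31 genes were named, with the highest folds for those with peaks in at least 2 lists. Positions and false discovery rates were given for the best-scored peaks of these genes in lists 2 and 3, and only in part for list 1. Members and lists were chosen with earlier results of these data known. Promoter motifs and protein domains were planned but not analysed here. Alternatives were the false discovery rate of 1%, better-ranked 50%, equal numbers of peaks, windows of 1 kb and 5 kb, in-gene summits, the nearest gene, 3 overlap rules and each list left out.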

Additional observations from a re-analysis of the deposited data

How the results depend on the processing

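The count of 9 BBX genes with peaks in at least 2 lists held, with the same 9 genes, for a window of 1 kb (12.4% of all genes) and the nearest gene alone (10.4%). It also held for peaks overlapping by 1 bp (15.1%), reciprocal overlap of 50% (12.5%) and summits within 100 bp (13.1%). All 9 genes had peaks in both lists 2 and 3, which were not read as independent, so these 3 overlap rules were no independent check. The count was 7 in the better-ranked 50% of each list (8.27% of all genes), 8 with equal numbers of peaks (12.1%) and 13 with 5 kb (33.7% of all genes). Leaving out each list in turn gave 6 to 9 genes: 9 without list 1 (11.9% of all genes), 6 without list 2 (9.23%) and 6 without list 3 (12.7%). Both counts of 6 left out BBX5, BBX7 and BBX17. With summits inside the gene alone it was 3 (9.68%, against 4.38% of all genes), and in lists 1, 2 and 3 the counts were then 6, 4 and 3 (24.5%, 5.53% and 3.72% of all genes). At the authors' false discovery rate of 1% the count was 0 (0.051% of all genes). Lists 1, 2 and 3 then had 0, 2 and 0 members (0.572%, 0.394% and 0.00364% of all genes), and list 3 had only 2 peaks in all. List 1 alone fell from 15 members to 4 in its better-ranked 50% (29.7% of all genes) and to 4 with equal numbers of peaks (14.6%), and reached 25 with 5 kb (75.2%).

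By group, each count was 0 at the rate of 1% (0.051% of all genes). BBX1-6 had 0 of 6 in the better-ranked 50%, with equal numbers and with in-gene summits. The shares of all genes were then 8.27%, 12.1% and 4.38%. With 5 kb BBX1-6 had 3 of 6 and BBX14-17 had 2 of 4, against 33.7% of all genes. With in-gene summits BBX7-13 had 1 of 6, BBX18-25 had 1 of 8 and BBX26-32 had 0 of 7, against 4.38%. Leaving out lists gave 0 to 1 for BBX1-6 and BBX14-17 and 1 to 2 for BBX7-13. All genes then stood at 9.23% to 12.7%. Taking the best-scored peak changed 1 fold, that of BBX5 in list 3, to 3.92. Shares rest on few genes, and folds of single peaks carry no error. No paired analysis was possible because the results come from no test and the wild-type libraries have no values of their own in the lists.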
